A study of Mus musculus with 8 samples.

Results

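The fibroblast growth factor (FGF) genes described here are the receptors Fgfr1, Fgfr2 and Fgfr3, the ligands Fgf1, Fgf2, Fgf7, Fgf10 and Fgf18, and Fgfbp1, a secreted FGF carrier. They were taken as every probe set to which the platform annotation gives 1 of these 9 symbols alone. That rule found 12 probe sets among the 24965 of both array types, all 12 from the A chip and 0 from the B chip. Fgfr2 had 3 probe sets, Fgfr3 had 2 and each other gene had 1.

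The series compared whole skin of p63 null mouse embryos with whole skin of wild-type embryos, all at E18.5, shortly before birth, and all from matings of p63 heterozygous mice. The gene altered in the null embryos is Trp63, which encodes p63, a transcription factor of stratified epithelia. The labels do not name the mutant allele. The skins of 2 null and 2 wild-type embryos were used, and each genotype has 2 arrays on each of 2 single-colour Affymetrix chips, the A chip and the B chip, 8 in all.

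FGF signalling in skin runs largely between dermis and epidermis. Fibroblasts of the dermis make Fgf7 (keratinocyte growth factor) and Fgf10, whose receptor on keratinocytes is the IIIb splice form of Fgfr2. Fgfr3 is also found in epidermis, while Fgfr1 is prominent in mesenchyme. Heparan sulfate chains hold FGFs near the cell surface, and Fgfbp1, made by keratinocytes, releases FGFs bound in the matrix. No source used here places the probes against the exons of the IIIb and IIIc splice forms, so no value is assigned to either form.

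Within this group the falls in p63 null skin were those of the carrier Fgfbp1 and the receptor Fgfr2. Fgfbp1 averaged 36.3 ± 3.89 signal units in null skin and 1316 ± 46.5 in wild-type skin (SD, n = 2 each). The brightest Fgfr2 probe set averaged 264.8 ± 55.6 in null skin and 1066 ± 69.0 in wild-type skin (SD, n = 2 each). In whole skin, fewer cells of a type and less RNA per cell cannot be told apart. Fgfr1 did not pass the test, and the dermal ligands Fgf7, Fgf10 and Fgf2 read too low to be tested. Of the 12 probe sets 5 exceeded the level for testing, a mean log2 value above the 40th percentile of the chip, and 7 did not. Of those 5, 3 were lower and 0 higher in the null by limma (adjusted p under 0.05 over all tested probe sets), where 22.2% of the 7453 probe sets tested were lower and 22.1% higher. The other 2 tested probe sets, 1 of Fgfr1 and 1 of Fgfr3, were not called.

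Trp63 itself read 61.9 and 46.6 in null skin, against 379.3 and 347.1 in wild-type skin, a log2 fold change of -2.49. No label or file used here places its probes against the mutation. The arrays of a genotype come from separate embryos, whose litters are not stated, so p-values rest on the spread between 2 embryos each. The 3' over 5' signal ratio of beta-actin, which rises as RNA degrades, was 1.27 in both null arrays of the A chip, against 1.63 and 1.69 in wild type. The null array numbered 2 stood apart in its CreX hybridisation spike, which read 6420 in it and 3592 in the other null array, against 3334 and 3837 in wild type. The 3' over 5' ratio of Gapdh was highest in wild-type replicate 2. It was 1.25 and 1.45 in the null arrays of the A chip, against 1.47 and 2.46 in wild type. The B chip's null arrays had 1.26 and 1.51, against 1.55 and 2.66 in wild type. The part of these in the results was not tested, but the tested members are also given without null replicate 2. Calls that change without wild-type replicate 2 are named for the members and for 1 probe set of each called pathway gene. Most marker calls were not rerun in this way.

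**Figure D1:**
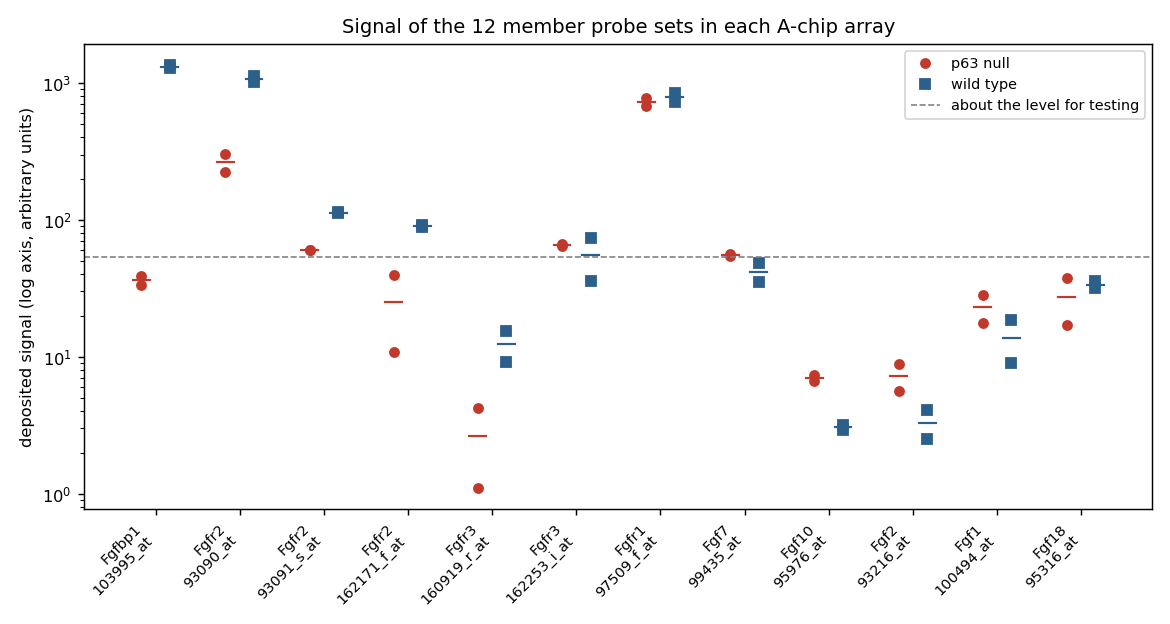
Deposited signal (log axis, arbitrary units) of each of the 12 member probe sets in the 4 arrays of the A chip, with null embryos as circles, wild-type embryos as squares and short lines at the genotype means. Fgfbp1 and the 3 Fgfr2 probe sets are lower in both null arrays, while most ligand probe sets lie under the dashed line, which marks about the level for testing.

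Fgfbp1 read 33.5 and 39.0 in null skin, against 1283 and 1349 in wild-type skin. Both null arrays were far below both wild-type arrays, and the arrays of each genotype lay close together. Its log2 fold change was -4.76 (SE 0.15, 95% confidence interval -5.09 to -4.43, adjusted p = 4.89e-08 by limma). Both null signals lay under 54.0, about the signal at the level for testing, so the probe set was tested through its wild-type arrays and the size of its fall depends on the offset of 12.9 added to every signal before taking logs. Over the 12 alternatives run its log2 fold change ranged from -5.01 to -3.95, and without null replicate 2 it was -4.84.

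Fgfr2, the receptor for dermal Fgf7 and Fgf10, was read by 3 probe sets. The brightest of them read 225.4 and 304.1 in null skin, against 1017 and 1114 in wild-type skin. The genotypes were well apart, with a wider spread in the null on the log2 scale but not in signal units. Its log2 fold change was -1.97 (SE 0.16, 95% confidence interval -2.32 to -1.62, adjusted p = 1.67e-05 by limma), and without null replicate 2 it was -2.18. The probe set with the suffix s, which marks probes that several transcripts share, read 60.2 and 60.7 in null skin, against 113.3 and 112.0 in wild-type skin. It too did not overlap, but it changed less, with a log2 fold change of -0.78 (SE 0.19, 95% confidence interval -1.21 to -0.34, adjusted p = 0.0106 by limma). Leaving out wild-type replicate 2 ended this call, with the same -0.78 and an adjusted p of 0.0512 by limma, and the value without null replicate 2 was also -0.78. The difference in size between the probe sets was not tested.

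The third Fgfr2 probe set, whose suffix f marks probes that can match a gene family, read 39.5 and 10.8 in null skin, against 91.6 and 88.1 in wild-type skin. It lay below the level for testing, yet both null arrays were under both wild-type arrays. In a fit with no filter on signal its log2 fold change was -1.54 (95% confidence interval -2.51 to -0.58, adjusted p = 0.0364 by limma), where 12.3% of all 12422 probe sets were called lower. All 3 Fgfr2 probe sets thus had both null arrays under both wild-type arrays, and 2 of them passed the filtered test. Over all 12422 probe sets of the chip without controls, 28.1% had that order.

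To show the DNA just ahead of the genes that fell, the 250 bases before their RefSeq start sites (GRCm38.p6) follow, 5′ to 3′ on the gene's strand. That of Fgfbp1 is chr5:43981800-43982049 on the minus strand and that of Fgfr2 is chr7:130266809-130267058 on the minus strand. Capitals mark only the letters CATG, a form of CWWG (W is A or T), the centre of a p53-family half-site. Other forms of CWWG stand unmarked in both windows.
Fgfbp1: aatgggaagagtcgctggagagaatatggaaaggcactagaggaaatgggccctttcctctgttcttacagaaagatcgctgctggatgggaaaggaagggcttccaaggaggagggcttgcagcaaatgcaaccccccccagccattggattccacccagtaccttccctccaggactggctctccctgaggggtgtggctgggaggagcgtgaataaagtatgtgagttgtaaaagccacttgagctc
Fgfr2: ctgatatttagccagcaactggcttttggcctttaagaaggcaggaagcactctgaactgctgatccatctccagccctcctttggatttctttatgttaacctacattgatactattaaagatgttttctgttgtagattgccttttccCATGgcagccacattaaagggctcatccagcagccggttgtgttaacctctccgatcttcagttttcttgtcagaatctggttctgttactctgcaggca
On either strand CATG, its own reverse complement, stood in the Fgfr2 window 100 bases before the start and was not among the letters of the Fgfbp1 window. Of all 32851 promoter windows of this length 53.9% hold it. The tandem p53-family core was searched only as CWWGNNNNNNCWWG (N is any base), with no bases between the half-sites. This core and the AP-1 site TGANTCA matched in neither window, and 5.84% and 6.75% of all windows hold them. The table had windows for 7 of the 9 genes, and the tandem core and TGANTCA matched in 0 of them, while CATG also stood in that of Fgf18. A match is a description of the letters and not a binding site.

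Fgfr3, a second receptor of the epidermis, had no usable pair of probe sets. The first, whose suffix i marks fewer unique probes than the design asked for, read 66.8 and 64.9 in null skin, against 74.2 and 35.8 in wild-type skin. The wild-type arrays enclosed both null values. Its log2 fold change was 0.27 (SE 0.29, 95% confidence interval -0.38 to 0.93, adjusted p = 0.469 by limma), and without wild-type replicate 2 it turned to -0.15. Without null replicate 2 it was 0.29. The other, whose suffix r marks relaxed design rules, read 4.2 and 1.1 in null skin, against 15.5 and 9.2 in wild-type skin, so that both null arrays were lower at very low signal. It was below the level for testing. In the fit with no filter its log2 fold change was -0.70 (95% confidence interval -1.17 to -0.22, adjusted p = 0.0491 by limma). The 2 probe sets differ in direction, and no direction is given for Fgfr3.

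Fgfr1, the receptor prominent in mesenchyme, read 675.5 and 772.0 in null skin, against 726.3 and 839.3 in wild-type skin. The genotypes overlapped. Its log2 fold change was -0.11 (SE 0.13, 95% confidence interval -0.40 to 0.18, adjusted p = 0.517 by limma), an interval that holds changes of either sign but no fall as large as that of the brightest Fgfr2 probe set. Without null replicate 2 it was -0.21. Its single probe set is also of the gene-family kind, with the suffix f. Within arrays, the change of the brightest Fgfr2 probe set was lower than that of Fgfr1 by 1.86 on the log2 scale, as a difference of changes of -1.86. All null arrays lay on 1 side of all wild-type arrays in this difference, which gives an exact two-sided permutation p = 0.333, the smallest that 2 against 2 arrays allow.

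**Figure D2:**
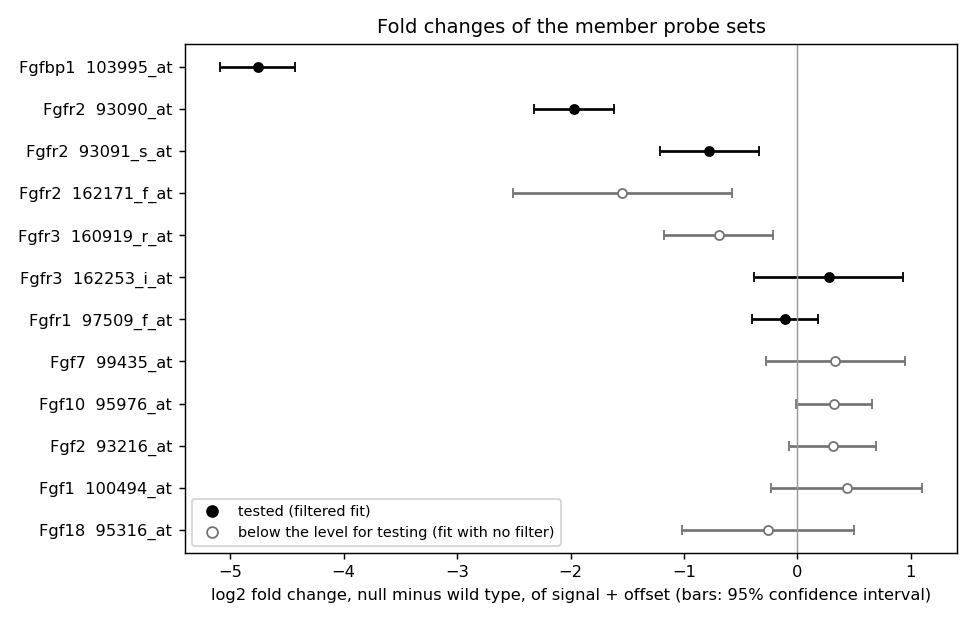
Log2 fold change (null minus wild type, of signal plus offset) of each member probe set with its 95% confidence interval. Filled points are the 5 tested probe sets and open points the 7 below the level for testing, taken from the fit with no filter. The intervals of Fgfbp1 and of the Fgfr2 probe sets lie wholly below 0, as does that of 1 Fgfr3 probe set, and those of Fgfr1 and of all ligands include 0.

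The dermal ligands were all below the level for testing. Fgf7, which acts on keratinocytes through Fgfr2, read 56.8 and 54.6 in null skin, against 35.1 and 48.7 in wild-type skin. Fgf10, a ligand of the same receptor that is needed for many epithelial buds, read 7.4 and 6.7 in null skin, against 2.9 and 3.2 in wild-type skin. Fgf2, a broadly acting ligand stored in the matrix, read 5.6 and 8.9 in null skin, against 2.5 and 4.1 in wild-type skin. Both null arrays were above both wild-type arrays for all 3 genes. Over all 12422 probe sets of the chip without controls, tested or not, 35.2% had both null arrays above both wild-type arrays, so this order is common. No detection calls are given in the sources used here, and the signals of Fgf10 and Fgf2 fell below the 10th percentile of the chip, so these values do not show that the transcripts were detected.

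In the fit with no filter the log2 fold changes of Fgf7, Fgf10 and Fgf2 were 0.34, 0.32 and 0.31, and none passed (adjusted p = 0.390, 0.146 and 0.214 by limma, with unadjusted p of 0.229, 0.0557 and 0.0948). Their 95% confidence intervals were -0.27 to 0.94 for Fgf7, -0.01 to 0.66 for Fgf10 and -0.07 to 0.70 for Fgf2. The offset of 12.9 exceeds every Fgf10 and Fgf2 signal, which limits how large a change could appear. In the contrast of dermal ligands with epidermal receptors, Fgfr2 passed the test, Fgfr3 gave no direction and the ligands were below the level for testing.

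The other ligands were low as well. Fgf1, which binds all FGF receptors, read 28.1 and 17.8 in null skin, against 9.0 and 18.6 in wild-type skin, and the genotypes overlapped. Fgf18, a ligand of the hair follicle and of bone, read 17 and 37.4 in null skin, against 35.6 and 31.8 in wild-type skin, also with overlap. With no filter their log2 fold changes were 0.43 (adjusted p = 0.312) and -0.26 (adjusted p = 0.593) by limma. Counted over all 12 probe sets, 8 had genotypes that did not overlap, 5 lower and 3 higher in the null, where 63.3% of all probe sets of the chip without controls and 73.9% of the tested ones did not overlap. The members' share is close to these.

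Marker genes of several skin cell types differed between the genotypes in the same arrays. Of 15 tested epidermal keratinocyte markers on the A chip 13 fell and 0 rose. Among all probe sets tested there 22.2% were lower and 22.1% higher. The median log2 fold change of the markers was -3.04, while that of all tested probe sets was 0.02. The summed signal of the 17 keratinocyte markers on the chip was 5289 and 6034 in null skin, against 45506 and 43919 in wild-type skin. Lor, the main cornified envelope protein, had a log2 fold change of -5.42 and Krt10, a suprabasal keratin, one of -1.71 (adjusted p = 2.63e-08 and 1.33e-05 by limma). The smallest fall that passed was that of Itgb4, an integrin of the basal layer, at -1.11 (adjusted p = 0.00228 by limma). The 2 that did not pass were Cdh1, the adhesion protein E-cadherin, at 0.01 and Itga6, the partner of Itgb4, at -0.41 (adjusted p = 0.973 and 0.0594 by limma).

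Fgfbp1 and Fgfr2 lay at different places among these markers. Of the 15 keratinocyte markers 1 had a lower log2 fold change than Fgfbp1 and 10 had a lower one than the brightest Fgfr2 probe set. Within arrays, Fgfbp1 changed by -1.96 relative to the mean log2 value of the 15 markers, while Fgfr2 changed by 0.83 relative to it. Each difference separated the genotypes, with an exact two-sided permutation p = 0.333, the smallest possible. Hair follicle markers were also lower, with 5 of 6 tested genes called lower, 0 higher and a median of -2.14. Of all tested probe sets 22.2% were called lower. Both null signals of Krt25, Krt27 and Dlx3, and of the keratinocyte marker Ivl, lay under 54.0, about the signal at the level for testing. These genes were thus tested through their wild-type arrays. How much of either member's fall moved with the keratinocyte and hair follicle markers was not tested.

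Markers of the dermis and of deeper tissue were level or higher. Of 13 tested dermal fibroblast markers 6 rose and 0 fell, with a median of 0.38 and a summed signal over the 14 on the chip of 45366 and 53155 in null skin, against 41001 and 38527 in wild-type skin. The largest rises were those of Pdgfrb, a receptor of mesenchymal cells, at 0.94 and Fn1, the matrix protein fibronectin, at 0.71 (adjusted p = 0.00412 and 0.00358 by limma). Lum, Twist1, Twist2 and Thy1 had values of -0.10, -0.04, -0.22 and -0.07, and none was called (adjusted p from 0.185 to 0.849 by limma). Fgfr1 changed by -0.42 relative to the mean of the 13 markers, with an exact two-sided permutation p = 0.333. All 11 skeletal muscle, 5 of 6 adipocyte, 5 of 7 endothelial and 8 of 8 leukocyte markers rose, and 0 fell, with medians of 1.38, 0.86, 0.90 and 1.55. Their summed signals were higher in both null arrays, for example 18850 and 20675 in null skin against 9375 and 9485 in wild-type skin for muscle. Of all probe sets tested on the A chip 22.1% were called higher. Both wild-type signals of the adipocyte marker Ucp1 and the leukocyte marker Ptprc lay under 54.0, about the signal at the level for testing. The part of these marker shifts in the values of the ligands and Fgfr1 was not tested.

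**Figure D3:**
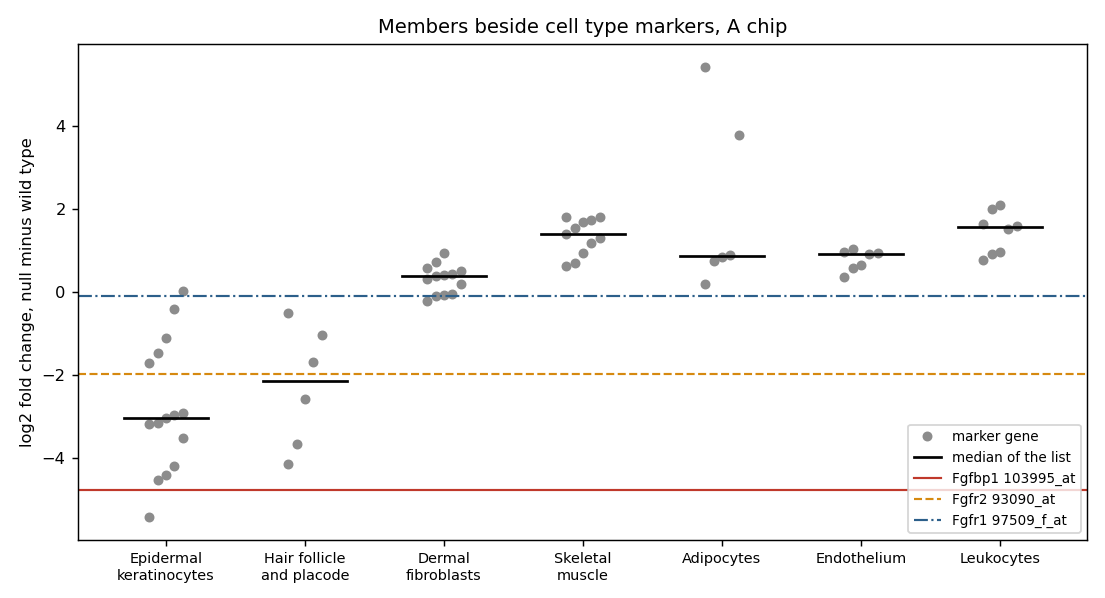
Log2 fold change (null minus wild type, A chip) of each tested marker gene of 7 cell types, with black bars at the list medians, and horizontal lines at Fgfbp1, Fgfr2 and Fgfr1. The Fgfbp1 line lies near the bottom of the keratinocyte markers, the Fgfr2 line above most of them, and the Fgfr1 line at the lower edge of the fibroblast markers.

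The genes whose log2 values over the 4 arrays, centred on their mean, lay nearest to Fgfbp1 were Serpinb5, Il1f5 and Ivl, at Euclidean distances of 0.26, 0.28 and 0.28 on the log2 scale. For the brightest Fgfr2 probe set they were Ide, Lmo1 and Krt12, at 0.15, 0.18 and 0.20. For the Fgfr2 probe set with the suffix s they were Tk1, Pon2 and Gspt1, at 0.03, 0.04 and 0.05. The 4 arrays share only 2 genotypes, so genes with a like fold change lie near each other by this measure.

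Other genes of the FGF pathway were called in both directions. Of 65 such genes 40 had a probe set on the A chip, of which 24 were tested, with 5 higher and 4 lower in the null. That makes 37.5%, beside 44.3% called among everything tested there. On the B chip 22 had a probe set and 19 were tested, with 3 higher and 1 lower, or 21.1%, beside 29.4%. The median log2 fold change of these genes was 0.19 for A and 0.10 for B, beside chip medians of 0.02 and 0.04. Both shares were below those of the chips as a whole, but the difference was not tested. The pathway shares count 1 probe set per gene, while the chip shares count every tested probe set.

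Among the receptors Fgfrl1, a receptor-like protein with no kinase domain, rose. It read 4046 and 4095 in null skin, against 1435 and 1673 in wild-type skin on the B chip, a log2 fold change of 1.36 (adjusted p = 0.000375 by limma). The genotypes were far apart, and the call held in all 12 alternatives. Fgfr4 and Kl were below the level for testing. Of the 3 values for other ligands that were tested, Fgf4 and Fgf11 (A chip) and Fgf9 (B chip), 0 passed by limma (adjusted p = 0.343, 0.242 and 0.0589), and the lowest came from Fgf9, which read 572.4 and 522.1 in null skin, against 388.2 and 341.7 in wild-type skin.

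The intracellular relay was divided. Gab1, a docking protein downstream of growth factor receptors, read 323.1 and 252.8 in null skin, against 516.3 and 493.1 in wild-type skin, and fell by 0.79 on the log2 scale (adjusted p = 0.00259 by limma). A dimmer Gab1 probe set had a value of -0.49 (adjusted p = 0.0983). Grb2, the adaptor that links receptors to Ras, read 354.9 and 358.5 in null skin, against 233.5 and 210.9 in wild-type skin, and rose by 0.65 (adjusted p = 0.00485 by limma). Both calls held in the alternatives run. The calls of the kinase Map2k2 (0.49, adjusted p = 0.0317) and of the GTPase Nras (-0.38, adjusted p = 0.0273) by limma were lost without either wild-type array. Without wild-type replicates 1 and 2 in turn they had adjusted p-values of 0.104 and 0.111 for Map2k2 and 0.163 and 0.0975 for Nras. Map2k2 also lost its call without null replicate 2 (adjusted p = 0.105), and Nras without null replicate 1 (adjusted p = 0.0564). With all arrays kept but no filter, the adjusted p-values by limma were 0.0540 for Map2k2 and 0.0529 for Nras. With no variance trend that of Nras was 0.0736. A second Nras probe set had a value of -0.07 (adjusted p = 0.835).

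Genes listed as feedback regulators or targets of FGF signalling had 0 calls among 4 tests on the A chip. Of all probe sets tested there 44.3% were called. The B chip had 1 call among 5 tests, beside 29.4% of all its tested probe sets. Dusp6, the phosphatase that damps ERK signalling, had log2 fold changes of -0.04 (A chip) and 0.32 (B chip) (adjusted p = 0.815 and 0.371 by limma). Spry1, Spry2 and Spry4, inhibitors of receptor signalling, had values of 0.02, 0.31 and 0.50, and the transcription factors Etv4 and Etv5 had 0.19 and 0.33, none of which passed (adjusted p from 0.0949 to 0.964 by limma). Spred2, an inhibitor of Ras signalling, had -0.40 and did not pass either (adjusted p = 0.0678 by limma). The call was its relative Spred1, which read 1780 and 1520 in null skin, against 3169 and 3331 in wild-type skin, a log2 fold change of -0.96 (adjusted p = 0.00209 by limma). Of its 5 probe sets on the B chip 3 were called lower and 2 were not called, with values of -0.18 and 0.05.

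Heparan sulfate genes were called about as often as all probe sets. The A chip had 3 of 11 tested called higher and 2 lower, beside 22.1% and 22.2% of all tested probe sets. The B chip had 2 of 8 higher and 0 lower, beside 14.5% and 14.9%. Sdc3, a membrane heparan sulfate proteoglycan, read 3996 and 4094 in null skin, against 1239 and 1167 in wild-type skin on the B chip, a log2 fold change of 1.71 (adjusted p = 9.56e-05 by limma). Hspg2, the basement membrane proteoglycan perlecan, read 1230 and 1188 in null skin, against 646.3 and 524.5 in wild-type skin (1.04, adjusted p = 0.000282 by limma). Sulf1, which removes sulfate groups from heparan sulfate outside the cell, rose by 1.06 and 1.25 in its 2 probe sets (adjusted p = 0.00128 and 0.00553 by limma). The genotypes did not overlap for these 3 genes, as for 73.9% (A chip) and 67.7% (B chip) of all tested probe sets. Their calls held in the alternatives run, which for Sulf1 covered only the probe set with the value of 1.06.

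Smaller changes in this group were less firm. Gpc1 rose by 0.49 and Ext2, which builds the chain, by 0.38 (adjusted p = 0.0117 and 0.0394 by limma). Sdc1, the main syndecan of keratinocytes, fell by 0.70 and Gpc3 by 0.55 (adjusted p = 0.0311 and 0.0306 by limma). Leaving out wild-type replicate 2 ended all 4 calls, with adjusted p-values of 0.114 for Gpc1, 0.107 for Ext2, 0.143 for Sdc1 and 0.0752 for Gpc3. Without wild-type replicate 1 those of Ext2, Sdc1 and Gpc3 were 0.167, 0.0552 and 0.0791. Without null replicate 1 those of Ext2 and Sdc1 were 0.0571 and 0.140, and without null replicate 2 those of Ext2 and Gpc3 were 0.102 and 0.0721, with Gpc3 at -0.25. Processing settings with all arrays kept ended some of these calls too. With no filter, the adjusted p-values by limma were 0.0502 for Ext2, 0.0853 for Sdc1 and 0.0905 for Gpc3. With no variance trend those of Ext2 and Gpc3 were 0.0639 and 0.0738, and with median centring that of Ext2 was 0.0622. A second Sdc1 probe set had a value of -0.30 (adjusted p = 0.300).

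**Figure D4:**
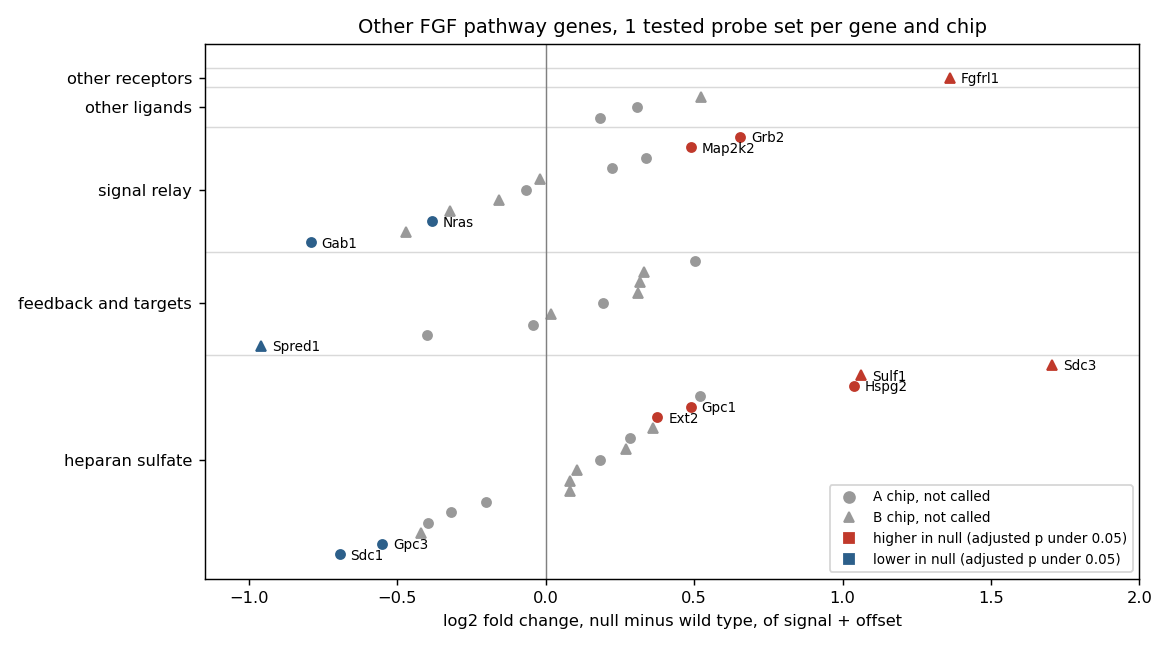
Log2 fold change (null minus wild type, of signal plus offset) of each other FGF pathway gene tested, with circles for the A chip and triangles for the B chip, and colour for calls at an adjusted p under 0.05. Sdc3, Fgfrl1, Sulf1 and Hspg2 stand above 1, and Spred1 and Gab1 are the lowest.

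The falls of Fgfbp1 and Fgfr2 kept their sign under other processing, as the plot of alternatives shows. The brightest Fgfr2 probe set ranged from -2.18 to -1.76 and the one with the suffix s from -0.85 to -0.55, so that the ranges of these probe sets, which read the same gene, stayed apart. Fgfr1 ranged from -0.21 to -0.01 and was never called, and the Fgfr3 probe set with the suffix i crossed 0, from -0.15 to 0.69.

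**Figure D5:**
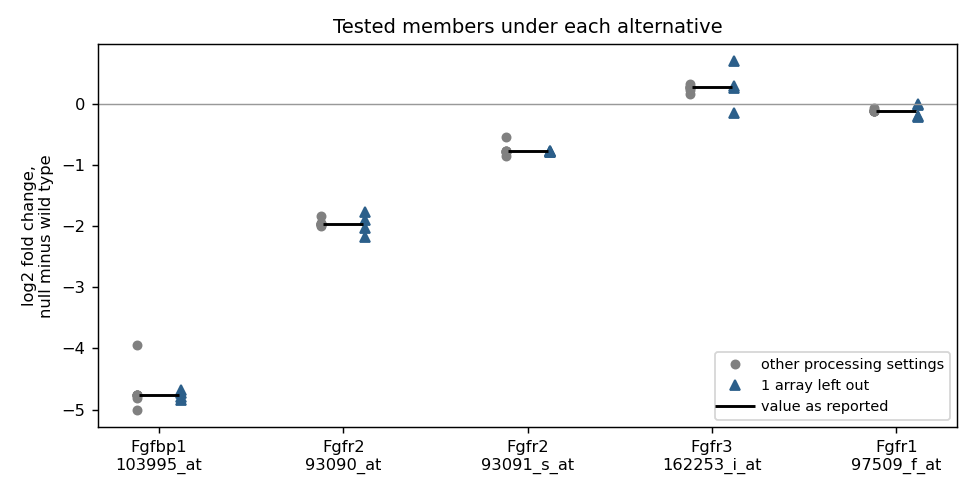
Log2 fold change (null minus wild type) of the 5 tested member probe sets as reported (black bars), under other processing settings (circles) and with 1 array left out (triangles). Fgfbp1 and both Fgfr2 probe sets stay below 0 throughout, and Fgfr3 lies on both sides of 0.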

How the data were processed

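Biotin-labelled total RNA of whole skin was hybridised to 1-colour arrays. The deposited values are linear intensities per probe set, made by the authors with MAS5 per the submitters' processing notes. Neither its version nor detection calls were found in the labels or files. The values had already been scaled, with 2% trimmed means of 250.1 to 250.2 (A chip) and 500.1 (B chip). Precision is limited by the number of arrays.

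Chips were analysed apart. Each array was rescaled to 1 trimmed mean, and the chip's 20th percentile (12.9 for A, 54.3 for B) was added before log2. Without the 66 control probe sets per chip, those with a mean log2 value above the 40th percentile (7453 and 7446) were tested with limma 3.58.1 in R 4.3.3 (lmFit, then eBayes with intensity trend). Tests were two-sided with Benjamini-Hochberg adjustment over the chip and a threshold of 0.05. The script was tested on simulated data. Symbols came from the platform annotation, some of it out of date. Of the A chip's probe sets other than controls 10833 had 1 symbol, 396 several and 1193 none. Where 1 value stands for a listed gene, it is that of its brightest tested probe set. Members, pathway lists and marker lists were chosen with earlier results of these data known. All probe sets of members are named, and of listed genes those called, with examples of the rest. The markers named are examples chosen after their values were seen. Alternatives covered offset, filter, scaling, variance trend, replicate number and each array left out. For genes outside the members they were added after the data were seen. Correlations of log2 values between arrays of 1 genotype were 0.980 (null) and 0.984 (wild type) for the A chip.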

Additional observations from a re-analysis of the deposited data

How the results depend on the processing

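Of 58 values of the 5 tested member probe sets under alternatives, 56 kept direction and call. The exceptions are without wild-type replicate 2, the Fgfr3 probe set with the suffix i at -0.15 (adjusted p = 0.751) and the Fgfr2 probe set with the suffix s at an adjusted p of 0.0512, whose cause was not tested. With 1 array left out, that Fgfr3 value ran from -0.15 to 0.69. With no filter, 5 member probe sets were lower in place of 3, because 1 more probe set of Fgfr2 and 1 of Fgfr3 were then tested, where 12.3% of all probe sets were lower. With 1 array left out, 2 to 3 member probe sets were lower and 0 higher. Then the A chip had 1078 to 1574 probe sets called higher and 1119 to 1729 lower, and the B chip 546 to 1186 higher and 557 to 1291 lower, with the low counts on each chip coming from leaving out a wild-type array. Of 155 values of the 13 called pathway genes, 26 lost the call and 0 turned direction, in Ext2, Nras, Gpc3, Map2k2, Sdc1 and Gpc1. No source ties null to wild-type embryos by number. Deviations of same-numbered arrays from their genotype means correlated at 0.04 (A chip) and -0.05 (B chip) across probe sets. With the replicate block the A chip had 1674 called higher and 1694 lower, the B chip 1229 and 1182, and member calls stayed at 3 lower and 0 higher. Member counts had no value on the B chip, which holds no member. Low signal limits the ligands, and the largest shift of a setting in the median of all tested probe sets was below 0.1.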
